A study of Mus musculus with 9 samples.

Results

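The transcription factors that give spinal interneurons their class identity were followed in the spinal cord of mice whose cord had been cut through at T9. The set was a given list of 44 genes, matched by symbol in a deposited table of 34745 genes. It was read in 5 groups by textbook role: 13 dorsal factors, 6 used by both dorsal and ventral classes, 13 ventral factors, 6 sensory factors and 6 that cut across classes. Of the 44 genes, 42 had enough counts to be tested.

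Spinal interneurons arise from a dorsal-to-ventral stack of progenitor domains. Each domain hands its postmitotic neurons a combination of homeodomain, LIM-homeodomain, basic helix-loop-helix, zinc finger and forkhead factors, which select transmitter, axon course and laminar position. Dorsal classes relay and gate touch, itch and pain, and ventral classes shape the rhythm and alternation of locomotion. Many of these factors stay on at low level in the adult cord, where they mark the classes, and several of the sensory factors are also used by neurons of the dorsal root ganglion, which lie outside the cord.

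Libraries of poly-A RNA came from spinal cord at day 0, day 3 and day 21, with 3 libraries per day. The day 0 libraries carry the letter N in their titles, which the labels do not explain, and were taken as day 0 because the series design names that time. Every group is given as mice of the transection model. There was no sham group. The sources used here do not give strain, sex, age, rostrocaudal level or length of cord taken. They also do not say whether each library is a separate mouse, so a p-value reflects only the spread among these libraries, some of which may be technical.

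Total gene counts were 14299679 to 24022923 per library, and the 44 factors together took 0.0413 to 0.0488% of them, or 6377 to 10119 counts. In each library 43 of the 44 had at least 1 count. A count of 0 in a library allows up to 3 counts, counting error only. Within day 0 and day 3, log2 levels of library pairs correlated at 0.985 to 0.989 across genes, as a description. Day 21 replicate 2 stood apart: it correlated at 0.943 and 0.935 with the other two day 21 libraries, which correlated at 0.987 with each other. In that library 6 of the tested factors lay more than 0.5 (log2) above the mean of the other day 21 libraries and 11 lay more than 0.5 below it, so every result on day 21 is also given without it where that changes a call.

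Markers of the tissue moved with time, and their part in the results below was not tested. Of 15 general neuronal genes, 13 fell at day 3 (median log2 fold change -0.89), and their summed level was 3120 to 3160 FPKM at day 0, 1650 to 1680 at day 3 and 2100 to 2530 at day 21. FPKM are counts scaled to gene length and to the library's total. Of 10 markers each, microglial and macrophage genes (10 higher), fibroblast and meningeal genes (10 higher), Schwann cell genes (9 higher) and endothelial genes (8 higher) rose at day 3. Of 10 genes each, 6 of oligodendrocytes and 6 of motor neurons fell (2 of the latter rose). Among all 16494 genes tested, 24.8% rose and 19.5% fell at day 3, and 17.9% were above day 0 at day 21. Hox genes of both the lumbosacral and the cervicothoracic list, read in the same libraries, fell at day 3. They were 5 of 6 tested lumbosacral ones (median -1.34) and 8 of 15 cervicothoracic ones (median -0.65). Of 10 skeletal muscle genes 9 were above day 0 at day 21 (median 2.92), with a summed level of 63.9 to 81.5 FPKM at day 0, 33.8 to 38.3 at day 3, and 168, 304 and 153 in the day 21 libraries, highest in replicate 2. No neuronal marker was at 0 in all libraries of a day. In bulk tissue fewer cells of a type and less RNA per cell cannot be told apart.

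At day 3 the identity factors fell more often than they rose. Of the 42 tested, 17 fell, 7 rose and 18 did not pass the test (edgeR, adjusted p under 0.05). Among all 16494 genes tested, 19.5% fell and 24.8% rose, against 40.5% and 16.7% of the factors. The median log2 fold change was -0.49 for the factors and 0.01 for all genes. Lhx4 had the lowest value of the set (-1.86) and Gata2 the highest (1.08). Leaving out day 21 replicate 2 gave 19 lower and 11 higher, with 29.2% and 32% of all genes. The count of factors that rose was 4 without day 0 replicate 1 and 4 without day 3 replicate 1.

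At day 21 fewer factors differed from day 0. Of the 42, 7 were lower and 3 higher, beside 11.3% and 17.9% of all genes, and the median was -0.26 against 0.02 over all genes. Leaving out day 21 replicate 2 gave 12 lower and 5 higher, beside 22.4% and 25.1% of all genes. They were 3 lower and 1 higher without day 0 replicate 3. Compared directly with day 3, day 21 had 6 factors higher and 5 lower, beside 11.7% and 16.1% of all genes. Those counts were 11 and 6 without day 21 replicate 2. Without day 21 replicate 1, day 3 replicate 1 or day 3 replicate 2 the higher count was 2, and without day 0 replicate 2 or day 3 replicate 3 it was 3. The lower count was 2 without day 3 replicate 1 and 3 without day 3 replicate 2. The comparisons share libraries, so a factor's values in them are given side by side and not as independent evidence.

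The role groups differed in how many of their members fell at day 3. Of 11 tested dorsal factors 5 fell and 2 rose (median -0.55). Of 6 factors shared by dorsal and ventral classes 5 fell and 0 rose (median -0.93). Of 13 ventral factors 4 fell and 2 rose (median -0.42). The 6 sensory factors split, with 2 lower and 2 higher (median 0.12), and of 6 cross-class factors 1 fell and 1 rose (median 0.03). The shares that fell were 45.5% (dorsal), 83.3% (shared), 30.8% (ventral), 33.3% (sensory) and 16.7% (cross-class), beside 19.5% of all genes. In the same order 18.2%, 0%, 15.4%, 33.3% and 16.7% rose, beside 24.8% of all genes. Differences between role groups were not tested, and the groups hold few genes.

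Summed FPKM, which the most abundant members dominate, gave another order for the ventral group, whose median was negative and whose sum was not. The dorsal sum was 18.1 to 19.6 at day 0 and 11.2 to 13.1 at day 3, and the sum of the shared factors went from 14.8 to 17.5 to a range of 8.57 to 9.62, with no overlap in either case. The ventral sum stayed close to its day 0 range (14.2 to 14.7, then 14.8 to 15.1), and so did the sensory sum (18.4 to 18.6, then 19.0 to 19.4). A flat sum here holds members that moved apart: within the ventral group Gata2 rose while Lhx4 fell, and within the sensory group Maf rose while Mafa fell. As a ratio of day 3 to day 0 means, the sums stood at 0.647 for dorsal, 0.564 for shared, 1.03 for ventral, 1.04 for sensory and 0.876 for cross-class factors, beside 0.527 for the 15 neuronal markers.

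**Figure D1:**
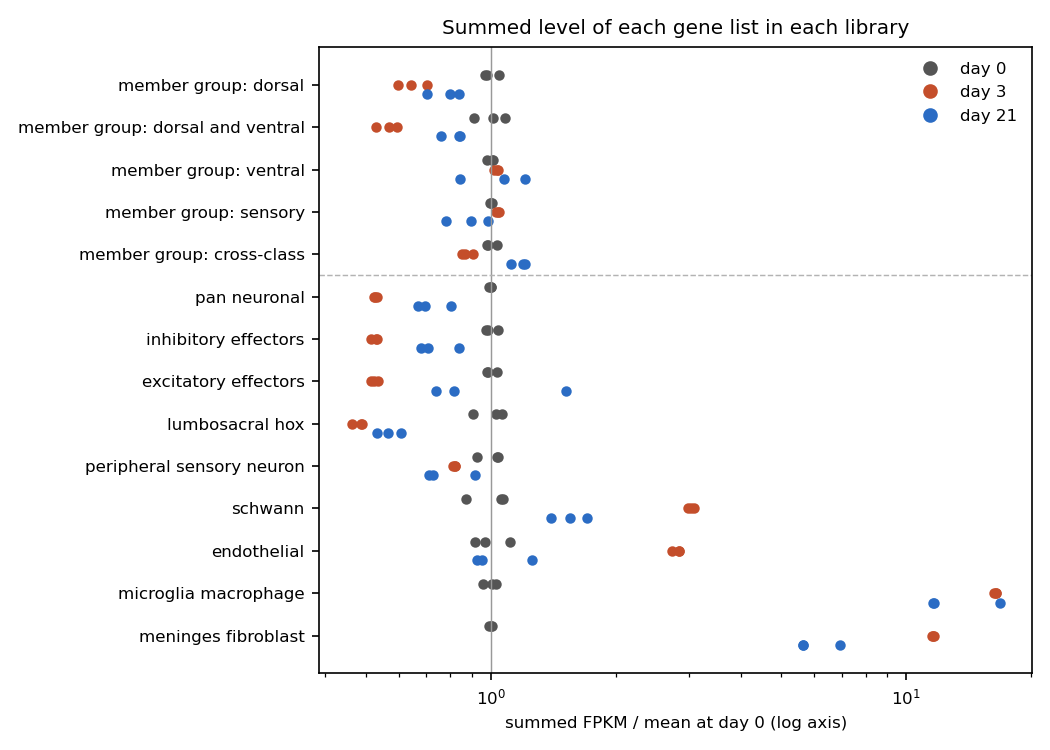
Summed FPKM of each group of identity factors (above the dashed line) and of each marker list (below it), divided by the list's mean at day 0, on a log axis. Each point is 1 library. Day 3 points of the dorsal and shared factors lie left of every day 0 point, as do those of the neuronal markers, whereas ventral and sensory sums stay near 1 and the microglial and fibroblast lists lie far to the right.

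At day 0 the most abundant factors were Mafa at 8.08 ± 0.511 FPKM (SD, n = 3), Lbx1 at 7.08 ± 0.497 and Pax2 at 6.27 ± 1.18. Neighbours in that order overlapped between libraries. Lmx1b followed at 4.53 ± 0.298 FPKM, below every Pax2 library. Of the 44 factors 25 reached 1 FPKM at day 0, while Foxp2, Evx2, Lhx2, Onecut2, Barhl1, Onecut1, Lhx9 and Ptf1a, 8 in all, stayed under 0.2. The order changed by day 3, when Maf (6.4 ± 0.342 FPKM) and Tlx3 (4.07 ± 0.366) stood above or beside Mafa (4.29 ± 0.601) and Lbx1 (3.59 ± 0.26).

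Among the dorsal factors, Lbx1 is the selector of the later dorsal interneuron classes and sets them apart from the relay neurons next to them. Its locus is chr19:45232684-45235812 (GRCm38). Lbx1 measured 6.99, 7.61 and 6.63 FPKM at day 0, 3.8, 3.3 and 3.67 at day 3, and 5.57, 7.14 and 4.34 at day 21. Every day 3 library was below every other library, and day 21 overlapped day 0. It fell at day 3 by 1.03 ± 0.17 on the log2 scale (SE, edgeR adjusted p = 0.0012) and was higher again at day 21 than at day 3 by 0.59 ± 0.18 (edgeR adjusted p = 0.0349). That second call was lost without any day 3 library, day 0 replicate 2, day 0 replicate 3 or day 21 replicate 1 (edgeR adjusted p 0.0519 to 0.125). With the 2 compared groups fitted alone or with a replicate block it was also lost (0.064 and 0.0767). Against day 0, day 21 did not pass (log2 fold change -0.44, edgeR adjusted p = 0.0838) but did without day 21 replicate 2 (-0.62, 0.00435).

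Lmx1b (chr2:33560965-33640511), a LIM-homeodomain factor of excitatory dorsal horn neurons, kept a low level at both injured times. It measured 4.19, 4.76 and 4.65 FPKM at day 0, 2.9, 2.26 and 2.41 at day 3, and 3.44, 1.94 and 3.08 at day 21. All injured libraries lay below all day 0 libraries. The log2 fold change was -0.9 ± 0.22 at day 3 (edgeR adjusted p = 0.00826) and -0.81 ± 0.22 at day 21 (edgeR adjusted p = 0.0219). The day 21 call was lost without day 0 replicate 2 or day 0 replicate 3 (0.0696 and 0.0677) and with the 2 groups fitted alone (0.0621).

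Gbx1, a homeodomain factor of a subset of inhibitory dorsal horn neurons, went the same way. It measured 2.99, 2.14 and 2.61 FPKM at day 0, 1.43, 1.11 and 1.12 at day 3, and 1.77, 2.26 and 1.61 at day 21. Day 3 lay below both other days, and day 21 overlapped day 0. The log2 fold changes were -1.13 ± 0.19 at day 3 (edgeR adjusted p = 0.000975) and -0.59 ± 0.18 at day 21 (edgeR adjusted p = 0.0388). The day 21 call was lost without day 0 replicate 1, day 0 replicate 3, day 3 replicate 2, day 3 replicate 3, day 21 replicate 1 or day 21 replicate 3 (0.0575 to 0.149), and in 4 other settings: both limma fits, the fit of 2 groups and the replicate block (0.0723 to 0.108). From day 3 to day 21 it passed in DESeq2 (0.56, adjusted p = 0.044) and on log2(FPKM + 0.1) (0.58, adjusted p = 0.0418), and not in edgeR (0.55 ± 0.19, adjusted p = 0.058).

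Its paralog Gbx2 moved the other way at day 3. Gbx2 measured 0.993, 1.21 and 0.829 FPKM at day 0, 1.67, 1.53 and 1.56 at day 3, and 1.0, 1.02 and 1.04 at day 21. The 3 day 3 libraries stood above all others. It rose by 0.6 ± 0.17 (edgeR adjusted p = 0.0182) and was lower at day 21 than at day 3 with a log2 fold change of -0.7 ± 0.17 (edgeR adjusted p = 0.0156). The rise was lost without day 0 replicate 1, day 0 replicate 3 or day 3 replicate 1 (0.0603 to 0.0701) and with no count filter (0.0586), and the later fall without day 3 replicate 1 (0.0603). On the GENCODE M21 annotation 43.5% of the exon bases of Gbx2 are shared with D130058E05Rik on the opposite strand. Whether counting used strand is not given, so its values are uncertain.

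The AP-2 factors gave the widest split of the dorsal group. Tfap2a and Tfap2b are paralogs that bind the same palindromic GC-rich sites, and in the dorsal horn both mark inhibitory precursors, while Tfap2a also acts in neural crest and skin. The 250 bases before a RefSeq start of each gene (GRCm38.p6, 5′ to 3′ along the gene) are shown because the pair moved in opposite directions. The Tfap2a window (chr13:40733796-40734045, minus strand) ends 28 bases from the 5′ end of the deposited locus chr13:40715675-40733823. The Tfap2b window (chr1:19211804-19212053, plus strand) lies 3140 bases from that of chr1:19208914-19238576. None of 4 motifs searched was in either window, so no capitals are used. A second RefSeq window of Tfap2a (chr13:40734921-40735170), 1097 bases from the same 5′ end and not shown, holds 1 match to TAATTA.
Tfap2a: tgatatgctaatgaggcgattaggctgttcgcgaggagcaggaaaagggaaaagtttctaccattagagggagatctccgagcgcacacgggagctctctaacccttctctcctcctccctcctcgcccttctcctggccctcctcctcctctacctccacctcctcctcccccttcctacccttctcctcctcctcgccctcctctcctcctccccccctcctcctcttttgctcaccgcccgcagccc
Tfap2b: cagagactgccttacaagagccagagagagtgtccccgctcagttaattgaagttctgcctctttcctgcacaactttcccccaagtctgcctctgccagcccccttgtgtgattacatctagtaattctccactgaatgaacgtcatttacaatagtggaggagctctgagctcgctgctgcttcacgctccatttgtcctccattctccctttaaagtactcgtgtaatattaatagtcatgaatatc

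Tfap2a measured 0.398, 0.743 and 0.928 FPKM at day 0, 1.55, 1.36 and 1.41 at day 3, and 0.685, 0.382 and 0.69 at day 21. Day 3 stood above all other libraries. It rose at day 3 by 1.02 ± 0.33 (log2, edgeR adjusted p = 0.0337) and stood lower at day 21 than at day 3, at -1.36 ± 0.34 (edgeR adjusted p = 0.0177). The rise was lost without any of the day 3 libraries, day 0 replicate 1 or day 0 replicate 2 (0.0683 to 0.0943), and the later fall without day 3 replicate 1 (0.0594). Of its exon bases 14.6% are shared with genes on the opposite strand, which makes these values uncertain too.

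Tfap2b measured 0.413, 0.541 and 0.626 FPKM at day 0, 0.187, 0.151 and 0.175 at day 3, and 0.286, 0.179 and 0.295 at day 21. Every injured library was below every day 0 library. It fell to -1.67 ± 0.26 at day 3 (edgeR adjusted p = 0.000769) and was still at -1.17 ± 0.26 at day 21 (edgeR adjusted p = 0.00859), and both calls held in all alternatives run. Day 21 against day 3 was 0.5 ± 0.27 (0.211), and 0.71 (0.0386) without day 21 replicate 2.

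Dmrt3, which marks commissural inhibitory neurons used in gait, fell from 0.878 ± 0.229 to 0.287 ± 0.0918 FPKM (SD, n = 3), a log2 fold change of -1.66 ± 0.46 (edgeR adjusted p = 0.016). The call was lost without day 0 replicate 2, day 3 replicate 1 or day 3 replicate 2 (0.0559 to 0.062). At day 21 replicate 2 held 1.24 FPKM and the other two libraries 0.451 and 0.439. Without that library day 21 was lower than day 0 (-1.07, edgeR adjusted p = 0.0239).

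Rorb, a nuclear receptor of dorsal horn interneurons that gate proprioceptive input, was the only dorsal factor called higher at day 21 than at day 0. It held 0.854 ± 0.0771 FPKM at day 0, 0.91 ± 0.0353 at day 3 and 1.27 ± 0.162 at day 21, where all libraries stood above the earlier ones. The log2 fold change was 0.45 ± 0.13 against day 0 (edgeR adjusted p = 0.0328) and 0.41 ± 0.14 against day 3 (0.0482). Both calls were lost without any of 7 libraries, that is all but day 0 replicate 1 and day 21 replicate 2 (0.0579 to 0.111 against day 0, 0.073 to 0.157 against day 3). They were lost too with no count filter, with 2 groups fitted and with a replicate block (0.0556 to 0.0965).

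The other dorsal factors were scarce. Lhx2 and Lhx9, which mark the dorsal-most commissural class, held 0.113 ± 0.0549 and 0.0403 ± 0.0139 FPKM at day 0, and Barhl1 of the same class held 0.104 ± 0.0104. None of these passed a test. Barhl2 held 0.282 ± 0.0687 FPKM at day 0, 0.169 ± 0.0221 at day 3 and 0.136 ± 0.0232 at day 21, on 4 to 15 counts per library, and was not tested. Ptf1a, the helix-loop-helix switch to inhibitory fate in the embryonic dorsal cord, had 0 counts in all 9 libraries.

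The factors shared by dorsal and ventral classes fell most uniformly, with 5 of 6 called at day 3. Pax2 is a paired-box factor kept by most inhibitory interneurons. It measured 4.91, 7.1 and 6.78 FPKM at day 0, 3.31, 3.21 and 3.58 at day 3, and 5.26, 3.69 and 5.02 at day 21. Day 3 lay below all other libraries, and day 21 overlapped day 0. The log2 fold change was -0.95 ± 0.19 at day 3 (edgeR adjusted p = 0.00348), and -0.55 at day 21, which did not pass (0.0595). The day 21 value passed without day 0 replicate 1 (-0.7, edgeR adjusted p = 0.0189), in DESeq2 (0.0341) and with no count filter (0.0378). The rise from day 3 to day 21 passed only without day 21 replicate 2 (0.56, edgeR adjusted p = 0.0173).

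Pax8, its paralog in the same neurons, measured 1.77, 2.42 and 2.53 FPKM at day 0, 1.23, 1.1 and 1.4 at day 3, and 1.98, 1.91 and 1.91 at day 21. Day 3 was again lowest, with no overlap. It fell to -0.9 ± 0.17 (edgeR adjusted p = 0.00245) and was higher at day 21 than at day 3 by 0.57 ± 0.17 (edgeR adjusted p = 0.0383). The second call was lost without any day 3 library, day 0 replicate 2, day 21 replicate 1 or day 21 replicate 3 (0.0553 to 0.139) and with a replicate block (0.0605). Against day 0, day 21 was called lower only without day 0 replicate 1 (-0.48, edgeR adjusted p = 0.0374).

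Lhx5 and Lhx1 are LIM-homeodomain paralogs that maintain the inhibitory programme downstream of the class selectors. Lhx5 (chr5:120431699-120441223) measured 3.22, 2.9 and 3.48 FPKM at day 0, 1.52, 1.41 and 1.42 at day 3, and 2.48, 3.2 and 3.02 at day 21. The day 3 libraries sat close together and below all others. Lhx5 fell to -1.19 ± 0.15 (edgeR adjusted p = 0.000167) and rose from day 3 to day 21 by 0.92 ± 0.15 (edgeR adjusted p = 0.00209), both in all alternatives run. Lhx1 held 1.22 ± 0.0742 FPKM at day 0, 0.556 ± 0.135 at day 3 and 0.82 ± 0.242 at day 21. Its log2 fold change was -1.18 ± 0.26 at day 3 (edgeR adjusted p = 0.00523) and -0.7 at day 21 (0.0698), which passed without day 21 replicate 3 (-0.91, 0.0396) and in DESeq2 (0.0395). From day 3 to day 21 it was called only without day 21 replicate 2 (0.71, edgeR adjusted p = 0.0194).

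Prdm8, a zinc finger repressor that acts with Bhlhe22, stayed low at both injured times. It held 1.12 ± 0.114 FPKM at day 0, 0.731 ± 0.091 at day 3 and 0.771 ± 0.121 at day 21, where no injured library reached day 0. The log2 fold changes were -0.67 ± 0.19 (edgeR adjusted p = 0.0171) and -0.66 ± 0.19 (edgeR adjusted p = 0.0279). At day 3 the call was lost without day 0 replicate 3, day 3 replicate 2 or day 3 replicate 3 (0.0514 to 0.072). At day 21 it was lost without day 0 replicate 1 or day 0 replicate 3 (0.0645 and 0.0951), on log2(FPKM + 0.1) and with 2 groups fitted (0.055 and 0.0724). An opposite-strand gene, A730035I17Rik, covers 29.1% of its exon bases, so its values are uncertain. Bhlhe22 held 2.2 ± 0.34, 1.79 ± 0.273 and 2.11 ± 0.19 FPKM at the 3 days and did not pass.

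**Figure D2:**
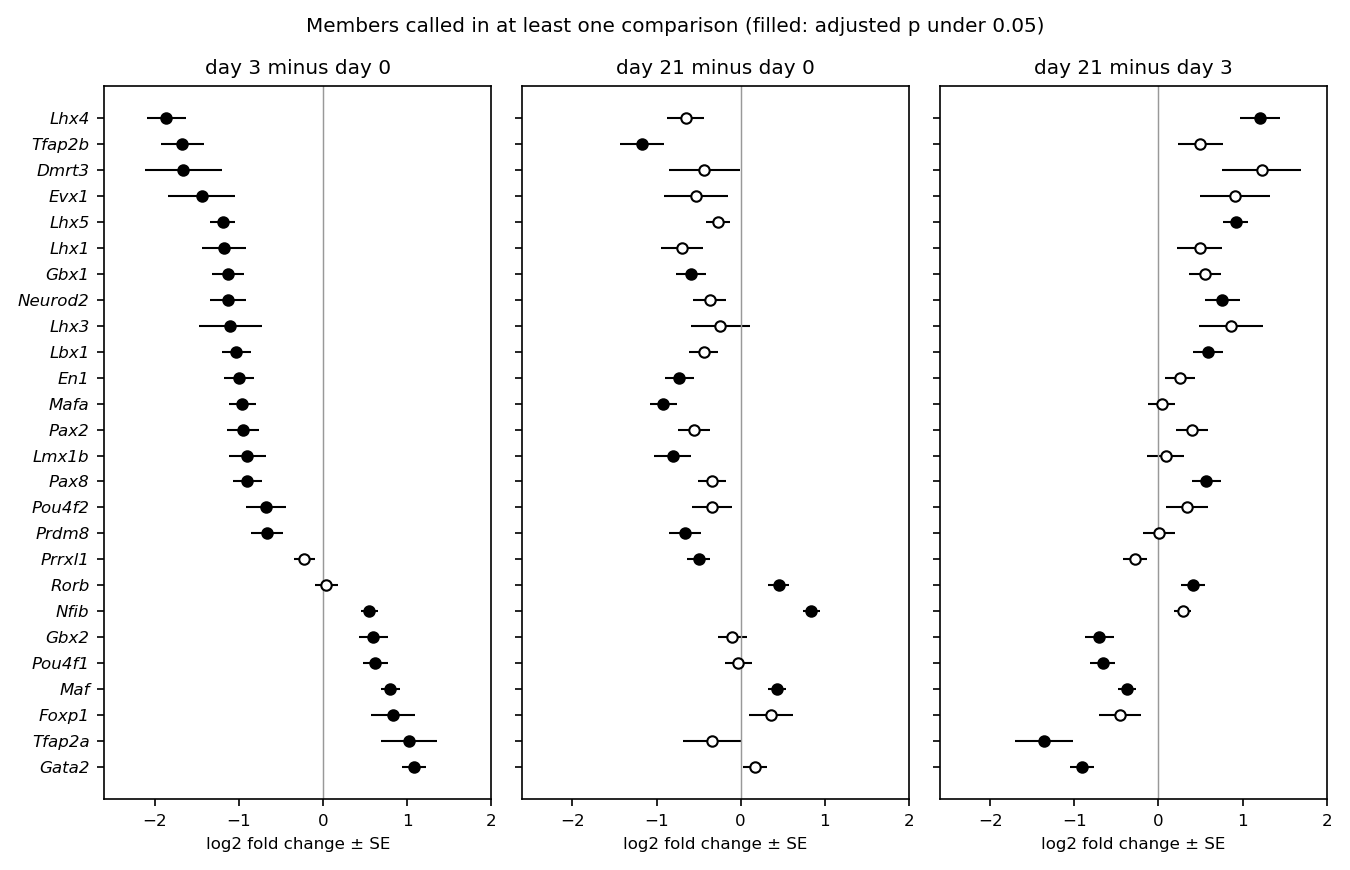
Log2 fold change ± SE from edgeR for the 26 factors called in at least 1 of the 3 comparisons, ordered by day 3 against day 0, with filled points for adjusted p under 0.05. In the left panel 17 filled points lie below 0 and 7 above; in the middle panel 7 lie below 0 and 3 above; in the right panel Lhx4 and Lhx5 lie to the right and Tfap2a and Gata2 to the left.

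Among the ventral factors Lhx4 had the lowest day 3 value of all 42 tested. Lhx4 is a LIM-homeodomain factor of excitatory ventral interneurons and newborn motor neurons. The 250 bases before its RefSeq start (chr1:155742028-155742277, minus strand, GRCm38.p6) are shown because it fell most. They lie 9657 bases from the 5′ end of the deposited locus chr1:155698031-155751684. Capitals mark the 1 match to TGANTCA, a pattern looser than the AP-1 site, with any base at N. The match reads TGAATCA.
Lhx4: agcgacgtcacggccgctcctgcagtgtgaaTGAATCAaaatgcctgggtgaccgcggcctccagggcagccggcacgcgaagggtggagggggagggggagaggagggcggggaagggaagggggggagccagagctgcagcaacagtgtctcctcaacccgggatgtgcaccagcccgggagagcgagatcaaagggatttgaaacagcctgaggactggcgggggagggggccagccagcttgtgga

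Lhx4 measured 1.22, 1.44 and 1.66 FPKM at day 0, 0.389, 0.538 and 0.295 at day 3, and 0.955, 1.13 and 0.911 at day 21. The 3 days did not overlap. It was 3.64-fold lower at day 3, a log2 fold change of -1.86 ± 0.23 (edgeR adjusted p = 0.000196), and higher at day 21 than at day 3 by 1.21 ± 0.24 (edgeR adjusted p = 0.00568). Both held in all alternatives run. Against day 0 the day 21 value was -0.65 ± 0.22, which did not pass (0.0526) but did without day 21 replicate 2 (-0.73, 0.0243), day 3 replicate 2 or day 3 replicate 3 (0.0395 and 0.0445), in DESeq2 (0.0282) and with no count filter (0.0451). Lhx3, its paralog, held 0.353 ± 0.111 FPKM at day 0 and 0.171 ± 0.0415 at day 3 (-1.1 ± 0.37, edgeR adjusted p = 0.0366). Its call was lost without any day 3 library, day 0 replicate 1, day 0 replicate 2 or day 21 replicate 1 (0.0518 to 0.127), in both limma fits and with a replicate block (0.0624 to 0.0778).

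En1 marks the inhibitory class that includes Renshaw cells and neurons that set the speed of locomotion. It measured 1.57, 1.47 and 1.25 FPKM at day 0, 0.781, 0.638 and 0.818 at day 3, and 0.943, 0.97 and 0.906 at day 21. The days did not overlap, with day 3 lowest. The log2 fold changes were -1.0 ± 0.18 at day 3 (edgeR adjusted p = 0.00146) and -0.73 ± 0.17 at day 21 (edgeR adjusted p = 0.0124), and both held in all alternatives run.

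Evx1 marks excitatory commissural neurons. It held 0.513 ± 0.0999 FPKM at day 0, 0.191 ± 0.086 at day 3 and 0.385 ± 0.168 at day 21, with a day 3 log2 fold change of -1.44 ± 0.4 (edgeR adjusted p = 0.0173). That call was lost without day 0 replicate 2, day 3 replicate 1 or day 3 replicate 3 (0.0593 to 0.0683). Its paralog Evx2, at 0.13 ± 0.0717 FPKM at day 0, did not pass.

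Gata2 rose while its class partners passed no test. With Gata3 and Tal1, Gata2 specifies the inhibitory branch of a ventral class that includes neurons touching the central canal, and Gata2 and Tal1 also serve blood and endothelial cells. Gata2 (chr6:88193891-88207032) measured 0.974, 1.11 and 1.02 FPKM at day 0, 2.44, 2.14 and 2.21 at day 3, and 1.45, 1.16 and 1.2 at day 21. Day 3 stood far above both other days. It rose by 1.08 ± 0.14 (edgeR adjusted p = 0.000238) and was lower at day 21 than at day 3, at -0.91 ± 0.14 (edgeR adjusted p = 0.00169), both in all alternatives run.

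Gata3 held 0.255 ± 0.0486 FPKM at day 0, 0.175 ± 0.0478 at day 3 and 0.2 ± 0.0323 at day 21, and Tal1 held 0.355 ± 0.0709, 0.549 ± 0.145 and 0.476 ± 0.0609. Neither passed; Tal1 did at day 3 without day 21 replicate 2 (0.56, edgeR adjusted p = 0.0412). Beside these values, the summed level of 10 endothelial markers was 60.9 to 73.9 FPKM at day 0, 181 to 188 at day 3 and 61.5 to 83.2 at day 21, and 8 of 10 rose at day 3. Of the erythroid and megakaryocyte list 2 of 7 tested rose at day 3, or 28.6%, near the 24.8% of all genes. That list had a summed level of 9.52 to 22.4 FPKM at day 0, 33.4 to 36 at day 3 and 19.9 to 57.4 at day 21. Gata1 was listed at 0 at day 0. Of 8 mast cell and basophil markers 6 were at 0 at day 0, and 2 could be tested. The part of these cells in the Gata2 values was not tested.

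Foxp1, a forkhead factor of ventral interneurons and limb motor columns that many immune and vascular cells also use, held 0.786 ± 0.119 FPKM at day 0, 1.44 ± 0.0992 at day 3 and 1.1 ± 0.381 at day 21. Every day 3 library was above every other library. It rose by 0.83 ± 0.26 at day 3 (edgeR adjusted p = 0.0269). Leaving out any single day 0 or day 3 library ended that call (0.0545 to 0.0972). At day 21 replicate 2 held 0.656 FPKM against 1.34 and 1.29 in the other two, and without it day 21 was called higher than day 0 (0.63, edgeR adjusted p = 0.00185). Foxp2, its paralog, held 0.143 ± 0.0315, 0.133 ± 0.0625 and 0.264 ± 0.0353 FPKM and did not pass.

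The progenitor-domain factors Nkx6-1, Irx3 and Irx5 made up most of the ventral sum and passed no test in the edgeR fit of all libraries. Nkx6-1 held 3.2 ± 0.421 FPKM at day 0, 3.88 ± 0.281 at day 3 and 4.32 ± 1.42 at day 21. Irx3 held 2.94 ± 0.0656, 2.28 ± 0.171 and 2.32 ± 0.61, and Irx5 1.93 ± 0.099, 2.67 ± 0.355 and 2.41 ± 0.47. At day 3 these linked Irx genes lay on opposite sides of day 0 with no overlap in either case. Leaving out day 21 replicate 2, both were called at day 3 (Irx3 -0.43, edgeR adjusted p = 0.0154; Irx5 0.42, 0.0348), and Irx3 was also lower at day 21 (-0.65, 0.00512).

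The sensory factors split between the large Maf genes and between the POU genes. Maf and Mafa mark mechanoreceptive circuits, Maf in deep dorsal horn neurons and both in touch neurons of the ganglion. Maf also serves macrophages and other blood cells. Maf measured 3.48, 3.63 and 3.52 FPKM at day 0, 6.1, 6.33 and 6.77 at day 3, and 5.23, 5.73 and 4.66 at day 21. The 3 days did not overlap. It rose by 0.8 ± 0.11 at day 3 (edgeR adjusted p = 0.000276), stood 0.43 ± 0.11 above day 0 at day 21 (edgeR adjusted p = 0.0159) and was lower at day 21 than at day 3, at -0.37 ± 0.11 (edgeR adjusted p = 0.0292).

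For Maf the day 21 rise was lost without day 0 replicate 3 (0.0554), with no count filter and with 2 groups fitted (0.0586 and 0.063). The fall from day 3 to day 21 was lost without any library but day 0 replicate 2 and day 21 replicate 2 (0.052 to 0.113) and in 5 other settings (0.0659 to 0.101). Beside these values, the 10 microglial and macrophage markers summed to 41.9 to 45 FPKM at day 0, 710 to 720 at day 3 and 508 to 733 at day 21, and all 10 rose at both injured times. Their part in the Maf values was not tested.

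Mafa, the most abundant factor at day 0, went down. It measured 8.21, 7.52 and 8.51 FPKM at day 0, 4.72, 4.54 and 3.6 at day 3, and 5.23, 4.52 and 4.14 at day 21. All injured libraries lay below all day 0 libraries, and the injured days overlapped. The log2 fold changes were -0.96 ± 0.16 (edgeR adjusted p = 0.00104) and -0.92 ± 0.16 (edgeR adjusted p = 0.00271), both in all alternatives run.

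Pou4f1 and Pou4f2 are POU-homeodomain paralogs of sensory neurons; Pou4f1 also marks early dorsal relay classes. The 250 bases before the RefSeq start of each (GRCm38.p6) are shown because this pair, too, moved apart. The Pou4f1 window (chr14:104468000-104468249, minus strand) ends at the deposited locus chr14:104461676-104467999, and capitals mark its 1 match to the E-box CAGCTG. The Pou4f2 window (chr8:78436648-78436897, minus strand) ends 2 bases from chr8:78433010-78436645 and holds none of the 4 motifs.
Pou4f1: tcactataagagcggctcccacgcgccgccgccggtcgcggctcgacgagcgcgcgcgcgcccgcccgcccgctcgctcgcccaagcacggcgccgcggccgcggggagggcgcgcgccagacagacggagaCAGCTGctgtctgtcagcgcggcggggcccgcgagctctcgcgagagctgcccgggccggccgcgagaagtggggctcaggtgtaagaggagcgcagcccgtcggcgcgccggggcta
Pou4f2: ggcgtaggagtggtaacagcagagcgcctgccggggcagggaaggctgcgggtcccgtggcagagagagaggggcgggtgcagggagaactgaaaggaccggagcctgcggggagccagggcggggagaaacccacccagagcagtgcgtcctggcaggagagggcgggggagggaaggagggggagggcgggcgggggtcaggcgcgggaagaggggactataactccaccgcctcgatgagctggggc

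Pou4f1 measured 1.41, 1.44 and 1.48 FPKM at day 0, 2.26, 2.54 and 2.11 at day 3, and 1.65, 1.74 and 1.23 at day 21. Day 3 stood above both other days. It rose by 0.62 ± 0.15 (edgeR adjusted p = 0.00941) and was lower again at day 21, at -0.66 ± 0.15 against day 3 (edgeR adjusted p = 0.0131). The later call was lost without day 3 replicate 2 (0.0591) and with 2 groups fitted (0.0528). Pou4f2 measured 0.52, 0.535 and 0.585 FPKM at day 0, 0.407, 0.261 and 0.398 at day 3, and 0.396, 0.536 and 0.48 at day 21. Day 3 lay below day 0 with no overlap. Its log2 fold change of -0.68 ± 0.24 only just passed (edgeR adjusted p = 0.0461). It was lost without any library but day 21 replicate 2 (0.055 to 0.165), in DESeq2 and with a replicate block (0.0849 and 0.0854).

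Prrxl1 and Tlx3 are homeodomain factors of pain and itch circuits, on in both dorsal horn and ganglion neurons. Prrxl1 held 2.01 ± 0.105 FPKM at day 0, 1.79 ± 0.185 at day 3 and 1.55 ± 0.126 at day 21. It was called only at day 21 (-0.5 ± 0.14, edgeR adjusted p = 0.0234), and not without day 0 replicate 2 or day 0 replicate 3 (0.083 and 0.058), in both limma fits, with 2 groups or with a replicate block (0.0538 to 0.0711). Tlx3 measured 2.99, 3.1 and 2.52 FPKM at day 0, 3.69, 4.11 and 4.42 at day 3, and 2.48, 4.22 and 2.28 at day 21. Day 3 was above day 0 with no overlap, but the test did not pass (0.45 ± 0.22, edgeR adjusted p = 0.134). Without day 21 replicate 2 it did (0.45, 0.0178), and day 21 was then lower than day 3 (-0.83, 0.00244).

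Markers of peripheral sensory neurons moved beside this group. All 19 were tested, and 1 of them was at 0 in every day 0 library. At day 3, 13 rose (median 4.09), or 68.4% beside 24.8% of all genes. From day 3 to day 21, 14 were lower, or 73.7% beside 16.1%. The sodium channel gene Scn10a went from 0.00546 ± 0.00502 FPKM at day 0 to 9.08 ± 0.302 at day 3 and 1.45 ± 0.267 at day 21, and Avil from 0.0563 ± 0.0229 to 13.9 ± 0.22 and 2.62 ± 0.562. The summed level of the list was 605 to 678 FPKM at day 0, 530 to 537 at day 3 and 463 to 597 at day 21. At day 0 that sum was mostly Nefh (559 ± 48 FPKM), which cord neurons share. By day 3 Nefh held 232 ± 0.554 FPKM, while Sprr1a went from 0.228 ± 0.171 to 126 ± 3.99. The part of these transcripts in the Pou4f1, Prrxl1 and Tlx3 values was not tested.

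Among the cross-class factors Nfib rose and Neurod2 fell at day 3. Nfib, a factor of late-born neurons and of astroglia, measured 1.29, 1.27 and 1.19 FPKM at day 0, 1.92, 1.96 and 1.8 at day 3, and 2.24, 2.62 and 2.45 at day 21. The days did not overlap and day 21 was highest. It was 0.55 ± 0.1 above day 0 at day 3 (edgeR adjusted p = 0.00149) and 0.84 ± 0.1 at day 21 (edgeR adjusted p = 0.000289), both in all alternatives run. From day 3 to day 21 it missed the threshold (0.29 ± 0.1, edgeR adjusted p = 0.0525). That comparison passed without day 21 replicate 2 (0.25, 0.0209), in DESeq2 (0.0112), in both limma fits (0.0498 and 0.039) and with median-of-ratios scaling (0.0484). Beside these values, 5 of 10 astrocyte markers rose and 2 fell at day 3, against 24.8% and 19.5% of all genes. At day 21, 3 were higher and 0 lower, against 17.9% and 11.3%. Their summed level was 1170 to 1270 FPKM at day 0, 2800 to 2850 at day 3 and 2350 to 2550 at day 21. Most of the rise in that sum is Gfap, at 553 ± 12.1, 2010 ± 8.3 and 1690 ± 215 FPKM. The part of these markers in the Nfib values was not tested.

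Neurod2, a helix-loop-helix factor of late-born excitatory local neurons, measured 2.24, 2.22 and 1.93 FPKM at day 0, 1.09, 1.08 and 0.853 at day 3, and 1.72, 2.34 and 1.34 at day 21. Day 3 was lowest and day 21 overlapped day 0. It fell to -1.13 ± 0.21 at day 3 (edgeR adjusted p = 0.00213) and rose by 0.76 ± 0.21 from day 3 to day 21 (edgeR adjusted p = 0.0281). The rise was lost without any day 3 library or day 21 replicate 1 (0.0608 to 0.106) and with 2 groups fitted (0.0688). Without day 21 replicate 2, day 21 was lower than day 0 (-0.59, edgeR adjusted p = 0.0195).

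Satb1, Zfhx3, Onecut1 and Onecut2 passed no test in the edgeR fit of all libraries. Satb1, a chromatin organiser of some ventral inhibitory neurons, held 1.48 ± 0.0648 FPKM at day 0, 1.0 ± 0.0233 at day 3 and 1.39 ± 0.453 at day 21, with an edgeR adjusted p of 0.0544 at day 3. Without day 21 replicate 2 it was lower at day 3 (-0.62, edgeR adjusted p = 5.2e-05) and higher from there to day 21 (0.66, 0.000147). Zfhx3, which marks long-projecting neurons, held 1.07 ± 0.138, 1.2 ± 0.225 and 1.29 ± 0.311 FPKM. Onecut2 held 0.11 ± 0.00638, 0.181 ± 0.0239 and 0.197 ± 0.0877 and was called higher at both injured times without day 21 replicate 2 (0.67, edgeR adjusted p = 0.00409; 1.06, 0.000693). Onecut1 held 0.0863 ± 0.0372 FPKM at day 0 and shares 52.8% of its exon bases with Gm20649, so its values are uncertain.

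The 17 factors that fell at day 3 were sorted into 3 groups by their calls at day 21 in the fit of all libraries. Lbx1, Pax8, Lhx5, Lhx4 and Neurod2, 5 factors, were higher again at day 21 than at day 3, and of these Lhx5 and Lhx4 kept that call in all alternatives run. Lmx1b, Tfap2b, Gbx1, Prdm8, Mafa and En1, 6 factors, were still below day 0 at day 21, and of these Tfap2b, Mafa and En1 kept that call in all alternatives run. The remaining 6, Dmrt3, Pax2, Lhx1, Pou4f2, Evx1 and Lhx3, passed neither test at day 21. These groups follow the side of the threshold on which a call fell, and differences in size between them were not tested. Against day 0, Lhx4 stood at -0.65 (edgeR adjusted p = 0.0526) and Gbx1 at -0.59 (0.0388). Without day 21 replicate 2, Lbx1, Lhx4, Neurod2 and Dmrt3 were also called below day 0 at day 21. Pax2, Lhx1 and Tfap2b were then called higher than at day 3. All 17 had a day 21 mean FPKM above the day 3 mean, and 0 had one at or above the day 0 mean. These 17 were picked by their day 0 and day 3 values in the same libraries, which favours a day 21 mean between them. The like share among all genes that fell at day 3 was not taken. Of the 7 that rose at day 3, Tfap2a, Gbx2, Pou4f1, Gata2 and Maf were lower at day 21 than at day 3, while Nfib and Maf were above day 0 at day 21.

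Paralogs within the set were compared within each library, as log2 ratios of FPKM with 0.01 added to each. In 4 of 14 pairs, picked out after their values were seen, both genes were called at day 3 and in opposite directions: Tfap2a up and Tfap2b down, Gbx2 up and Gbx1 down, Pou4f1 up and Pou4f2 down, Maf up and Mafa down. With single libraries left out Maf and Mafa kept these calls, while Tfap2a (edgeR adjusted p 0.0683 to 0.0943), Gbx2 (0.0603 to 0.0701) and Pou4f2 (0.055 to 0.165) lost theirs without the libraries named above. At day 21 against day 0 this held for 1 pair, Maf and Mafa. The mean log2 ratio of Tfap2a to Tfap2b was 0.32 at day 0, 3.0 at day 3 and 1.16 at day 21. For Maf over Mafa it was -1.18, 0.59 and 0.17, for Pou4f1 over Pou4f2 1.39, 2.69 and 1.68, and for Gbx1 over Gbx2 1.35, -0.39 and 0.86. Taken singly, 24.8% of all genes rose and 19.5% fell at day 3, and the share of opposite calls among other gene pairs was not taken. The Gbx2 and Tfap2a values are uncertain, as 43.5% and 14.6% of their exon bases are shared with opposite-strand genes.

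Some other pairs had like ratios at day 0 and day 3. Lhx1 over Lhx5 was -1.38 at day 0 and -1.4 at day 3, and Pax2 over Pax8 was 1.48 and 1.43, and in each of these pairs both genes fell. Further pairs shifted with no overlap: Gata2 over Gata3 from 2.0 to 3.66, Irx3 over Irx5 from 0.61 to -0.22, and Barhl1 over Barhl2 from -1.34 to -0.77. Foxp1 over Foxp2 (2.39 to 3.45) and Lhx3 over Lhx4 (-2.04 to -1.19) shifted with overlapping libraries. With 3 libraries against 3, the exact two-sided permutation test cannot give a p below 0.1, and adjusted over 14 pairs the smallest was 0.2, so no ratio passed.

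**Figure D3:**
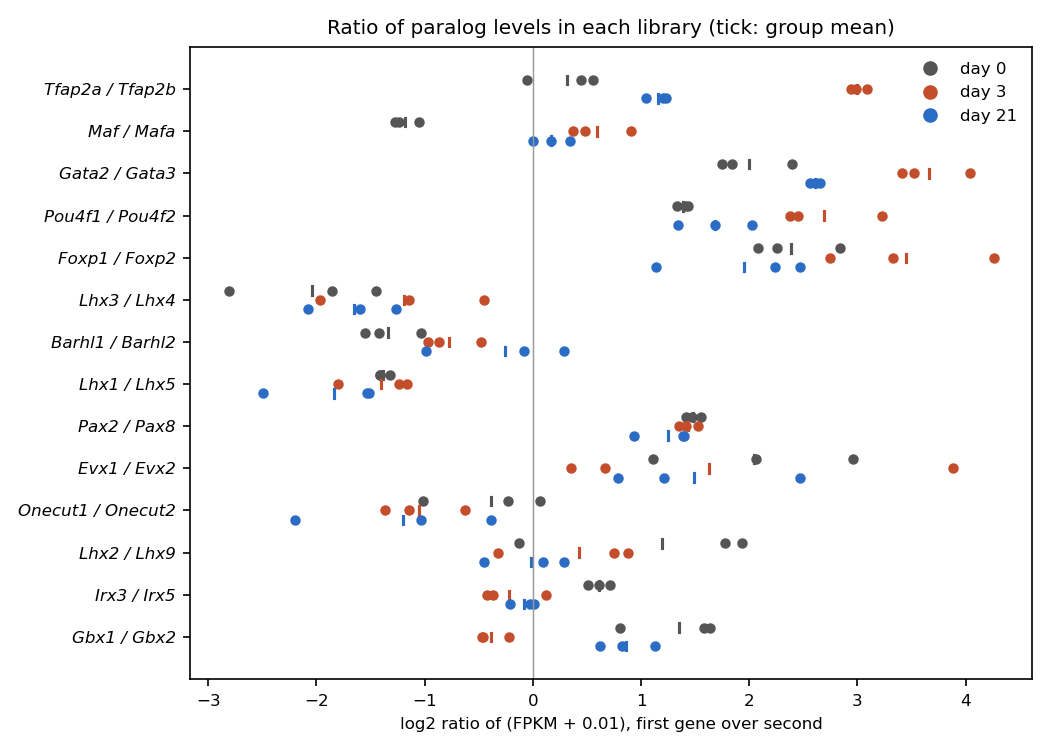
Log2 ratio of the FPKM of 2 paralogs (0.01 FPKM added to each) in each library for 14 pairs, with 3 points per day and a tick at each group mean. Day 3 points of Tfap2a over Tfap2b lie near 3 and far from day 0, those of Gbx1 over Gbx2 cross below 0, and those of Pax2 over Pax8 stay on the day 0 points.

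Promoter windows of 250 bases were found in the RefSeq table (GRCm38.p6) for 34 of the 44 factors, 49 windows in all. Their median GC content was 61.6%, beside 52.4% over all 32851 windows. The motifs searched on both strands were TAATTA (homeodomain), AGATAA (zinc finger factors such as Gata2), TGANTCA (looser than the AP-1 site, with any base at N) and CAGCTG (E-box), none of which contains another. TAATTA was in 4.08% of the factors' windows and 4.84% of all, AGATAA in 2.04% and 9.99%, TGANTCA in 6.12% and 6.75%, and CAGCTG in 14.3% and 13%. A match is a description of these letters, and its absence says nothing of the factor.

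Identity factors outside the set were read from a list of 60, of which 48 were tested. At day 3, 18 fell and 8 rose (median -0.39), which is 37.5% and 16.7% beside 19.5% and 24.8% of all genes. At day 21 against day 0, 5 were lower and 7 higher, 10.4% and 14.6%, near the 11.3% and 17.9% of all genes. From day 3 to day 21, 14 rose and 5 fell, 29.2% and 10.4% beside 11.7% and 16.1%. Lowest at day 3 among those at 0.5 FPKM or more were Esrrg (-1.94 ± 0.3, edgeR adjusted p = 0.000689), Mnx1 (-1.62 ± 0.34, 0.00404), Olig3 (-1.59 ± 0.29, 0.00196) and Esrrb (-1.42 ± 0.2, 0.000432). Mnx1 belongs to motor neurons, the Esrr receptors to motor and proprioceptive circuits, and Olig3 to dorsal progenitors.

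Among those that rose at day 3 were Prdm12 (6.33 ± 0.41, edgeR adjusted p = 3.04e-06), Pou2f2 (2.08 ± 0.21, 4.48e-05) and Isl2 (1.71 ± 0.21, 0.000158). Prdm12 is known from pain-sensing ganglion neurons and embryonic ventral cord. Prdm12 held 0.0337, 0.077 and 0 FPKM at day 0, 3.32, 3.16 and 3.07 at day 3, and 0.745, 0.835 and 0.736 at day 21. Prdm12 and Isl2 are also on the list of peripheral sensory markers, and the part of ganglion transcripts in their values was not tested.

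At day 21 Prdm12 (4.22 ± 0.45, edgeR adjusted p = 0.000186), Pou2f2 (2.38 ± 0.21, 5.46e-05) and Nfia (0.55 ± 0.12, 0.00984) were above day 0. Esrrb (-0.75 ± 0.2, 0.0198), Skor2 (-0.73 ± 0.23, 0.0411), Skor1 (-0.66 ± 0.13, 0.00634) and Bcl11a (-0.5 ± 0.13, 0.0183) were below it. Esrrb was lost without day 0 replicate 2 or day 0 replicate 3 (0.053 and 0.0696). Bcl11a was lost without those libraries or day 21 replicate 3 (0.0529 to 0.0673). Skor2 was lost without any library but day 21 replicates 1 and 2 (0.0649 to 0.108). Each of these 3 was lost with 2 groups fitted, and Bcl11a and Skor2 also with a replicate block.

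From day 3 to day 21 Olig3 (2.02 ± 0.29, edgeR adjusted p = 0.00113), Esrrg (1.45 ± 0.3, 0.00695), Neurod6 (1.16 ± 0.24, 0.00662) and Msx1 (1.13 ± 0.21, 0.00395) rose. Prdm12 (-2.11 ± 0.28, 0.000725), Isl2 (-1.42 ± 0.21, 0.00126), Isl1 (-1.29 ± 0.27, 0.00807) and Pou3f1 (-0.98 ± 0.14, 0.00107) fell. Isl1 and Isl2 are LIM-homeodomain factors of motor and sensory neurons, and Pou3f1 is used by both spinal neurons and Schwann cells.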

How the data were processed

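RNA-seq of 9 mouse spinal cord libraries was used. The authors deposited 1 table with a count and an FPKM column per library. HISAT2 and StringTie (no versions) and a human build, GRCh38, are named in the submitters' processing notes; the deposited loci are mouse GRCm38. The sources used here do not say whether counting used strand. The deposited counts are whole numbers, not normalized. The deposited FPKM equal count over gene length and library total, within 0.00161% over 12001 genes.

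Counts were tested with edgeR 4.0.16 (R 4.3.3; TMM, default filter, robust quasi-likelihood, all 9 libraries in 1 fit, 6 residual degrees of freedom, two-sided). Calls were made at a Benjamini-Hochberg adjusted p under 0.05 over 16494 genes. FPKM are mean ± SD over 3 libraries. A call is lost when an alternative gives an adjusted p of 0.05 or more; libraries were left out singly. The factors, role groups and lists were chosen with earlier results of these data known. Fold changes are named for factors called in at least 1 comparison, and beyond them for the up to 4 (inhibitory and excitatory lists: 3) largest called changes per list, direction and comparison at 0.5 FPKM or more. Factors that do not pass are given by level. Of the further genes that the rule took, 1 is not reported here. On simulated counts for day 3 against day 0 (16261 genes) the share of altered genes that edgeR called was 4.48% (67 genes) at 1.5-fold, 35.8% (67 genes) at 2-fold and 87.9% (66 genes) at 4-fold. In that simulation 88 genes were called, against 7307 (44.3%) in the data. A stricter p-value was therefore needed to pass there, and these shares are not the sensitivity of the day 3 comparison here.

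Alternatives were DESeq2 1.42.0, limma 3.58.1 on log2(FPKM + 0.1) and log2(FPKM + 1), median-of-ratios scaling, no count filter, a filter of 10 counts in 3 libraries, the 2 compared groups alone, a block for the replicate number, and leaving out single libraries. Exon overlap was read from GENCODE M21 and promoter windows from RefSeq.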

Additional observations from a re-analysis of the deposited data

Results flagged for a closer look

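For 11 of the 42 tested factors the difference from day 0 was itself different at the 2 injured times, by edgeR's direct test of day 21 against day 3. Of the factors 14.3% were higher and 11.9% lower, near the 11.7% and 16.1% of all genes. Lower again at day 21, on the log2 scale, were Tfap2a (-1.36), Gata2 (-0.91), Gbx2 (-0.7), Pou4f1 (-0.66) and Maf (-0.37), each of which had risen at day 3. Higher at day 21 than at day 3 were Lhx4 (1.21), Lhx5 (0.92), Neurod2 (0.76), Lbx1 (0.59) and Pax8 (0.57), each of which had fallen, and Rorb (0.41), which had not moved past the test at day 3. Lhx4, Lhx5 and Gata2 kept this call in all 17 alternatives, and the other 8 lost it in at least 1.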

How the results depend on the processing

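Of 45 called results on the 44 factors, 23 kept their call in all 17 alternatives, 22 lost it in at least 1 and 0 changed direction. The counts of factors moved more. With single libraries left out, 4 to 11 factors were higher and 13 to 19 lower at day 3, 1 to 5 higher and 3 to 12 lower at day 21, and 2 to 11 higher and 2 to 6 lower at day 21 than at day 3. With no count filter 1 factor was higher at day 21. On log2(FPKM + 0.1) 4 were lower at day 21. With 2 groups fitted 3 were lower at day 21, and 3 were higher and 3 lower at day 21 than at day 3. The cause was not tested.

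Over all genes, lower calls at day 21 numbered 1864 in the fit of 9 libraries, 1107 and 1172 in the limma fits, 801 with 2 groups fitted and 1011 to 3748 with 1 library left out. Lower calls at day 3 numbered 3217, and 2361 to 4891 with 1 left out. For day 21 against day 3, 1928 were higher and 1006 to 3941 with 1 left out, and 2657 were lower and 1887 to 4305.

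Replicate numbers did not pair the libraries: deviations of same-numbered libraries correlated at -0.146 to 0.107 (9 pairs) and of others at -0.218 to 0.227 (18 pairs). With the replicate block 7 factors were higher and 15 lower at day 3, 2 and 5 at day 21, and 3 and 4 at day 21 against day 3.

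Signs turned for factors that passed no test in that comparison: Rorb at day 3 with no count filter (-0.05); at day 21 Gbx2 in the limma fits (0.03 and 0.01), with a range of -0.22 to 0.05 when single libraries were left out, and Pou4f1 in the limma fits (0.07 and 0.05), with a range of -0.11 to 0.1. For day 21 against day 3 they turned with single libraries left out for Lmx1b (-0.09 to 0.31), Prdm8 (-0.09 to 0.15) and Mafa (-0.07 to 0.11).

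Depth limits Barhl2, at 4 to 15 counts per library, and Ptf1a, at 0, which were not tested.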

Other observations

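Lists of transmitter genes and other marker genes of interneurons were read beside the identity factors. Of 12 genes listed as inhibitory, 8 fell and 1 rose at day 3 (median log2 fold change -0.87), or 66.7% and 8.33% beside 19.5% and 24.8% of all genes. The 8 include Chrm2, Kcnip2 and Calb2, which are not transmitter genes. Bulk values do not show that the Calb2 transcripts came from inhibitory neurons. At day 21, 6 of the 12 were lower, Calb2 among them, and 1 was higher, or 50% and 8.33% beside 11.3% and 17.9% of all genes. The higher gene was Npy (0.67 ± 0.22, edgeR adjusted p = 0.0458), lost without any library but day 21 replicates 2 and 3 (0.0596 to 0.13) and in 3 other settings (0.0722 to 0.11). Slc32a1, the vesicular transporter for GABA and glycine, held 119, 113 and 108 FPKM at day 0, 41.8, 42.9 and 40.6 at day 3, and 69.8, 63.6 and 64.8 at day 21. The 3 days did not overlap, and the values were -1.49 ± 0.09 (edgeR adjusted p = 2.15e-06) and -0.9 ± 0.09 (0.000123). Slc6a5, the glycine transporter of glycinergic neurons, stood at -1.92 ± 0.29 at day 3 (edgeR adjusted p = 0.000652) and -1.06 ± 0.29 at day 21 (0.0231), the second lost without day 0 replicate 2 or day 0 replicate 3 (0.0656 and 0.0668). Chrm2 also fell at day 3 (-2.02 ± 0.33, edgeR adjusted p = 0.00105), and the peptide gene Gal rose (2.43 ± 0.35, 0.000473).

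Of 12 excitatory genes, 8 fell and 2 rose at day 3 (median -0.99), or 66.7% and 16.7% beside 19.5% and 24.8% of all genes. At day 21 there was 1 lower and 1 higher (median -0.03), 8.33% each beside 11.3% and 17.9% of all genes. The lower gene was Slc17a6 (-0.42 ± 0.14, edgeR adjusted p = 0.0484), lost without any library but day 21 replicates 2 and 3 (0.057 to 0.11) and in 4 other settings (0.0709 to 0.139). The higher was Nts (0.69 ± 0.18, edgeR adjusted p = 0.0183), lost without any day 0 library (0.0535 to 0.0641) and with 2 groups fitted (0.0521). The peptide genes Ucn3 (-2.17 ± 0.46, edgeR adjusted p = 0.00409), Nmu (-1.78 ± 0.41, 0.00648) and Cck (-1.33 ± 0.27, 0.00318) were lowest at day 3. Slc17a8 (1.6 ± 0.25, 0.000669) and Slc17a7 (0.86 ± 0.14, 0.00106), vesicular glutamate transporters, rose then. From day 3 to day 21 Nmu (1.89 ± 0.41, edgeR adjusted p = 0.00903) was higher and Slc17a8 (-1.65 ± 0.25, 0.00154) lower. In day 21 replicate 2 the excitatory genes summed to 575 FPKM, and in the other two day 21 libraries to 310 and 280.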
